A study of Homo sapiens with 2 samples.

Results

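Genes of glucose uptake, glycolysis, pyruvate handling and the response to low oxygen were followed in SW620 cells made to express CDR1AS (1 array), against SW620 cells with a control lentivirus (1 array). SW620 is an established human colon carcinoma line, and CDR1AS is a circular RNA known for its many miR-7 binding sites. Both cultures were grown in DMEM with serum, and the labels name no oxygen or glucose condition. They do not say whether the CDR1AS cells were a clone or a pool, or which promoter drove CDR1AS. The genes were chosen by name, as 53 symbols of these pathways, and matched to probes through the platform's annotation. This gave 47 genes with 55 probes, of 18638 genes on the arrays. SLC16A1, SLC16A3, PDHA1, ENO2, CA9 and PGAM1 were not analysed here. Of the 47 genes, 44 were above background on both arrays and SLC2A12 and EPAS1 on the CDR1AS array only. SLC2A2, the low-affinity transporter of liver and islet cells, was above background on neither array (spot intensity 70.3 on the CDR1AS array and 66.7 on the control array). The 46 remaining genes are called measured.

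Glucose enters cells through the GLUT carriers of the SLC2A family, is trapped by hexokinases and is split by the glycolytic enzymes to pyruvate. Pyruvate either becomes lactate through lactate dehydrogenase or enters mitochondria, where the pyruvate dehydrogenase complex converts it to acetyl-CoA and the PDK kinases switch that complex off. Under low oxygen, the HIF transcription factors escape hydroxylation by the EGLN enzymes and raise many of these genes, and colon carcinoma cells are known for high glucose uptake and lactate output also in the presence of oxygen.

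The arrays were read as follows. The median gene probe had a spot intensity of 109 on the CDR1AS array and 103 on the control array, in scanner units, against limits set by blank spots of 72.1 on the CDR1AS array and 69.1 on the control array. Many genes were therefore close to background. Ratios are on a log2 scale after an offset of 50 and quantile normalization, CDR1AS array over control array, and the offset draws the ratio of dim genes towards 0. Each group was 1 array, so no test was possible, every ratio compares these arrays only, and precision is limited by their number. As a guide to technical spread, the log2 ratio of repeated positive-control spots had an SD of up to 0.19 (24 spots). These are bright spots within the arrays and do not measure the spread between cultures. The probe table named no probe for circular CDR1AS, so its level was not checked here. Of the colon epithelial markers, KRT18 (47565 and 56040), KRT19 (12239 and 6186) and EPCAM (6334 and 8538 on the CDR1AS and control arrays) were bright. CDX2, an intestinal transcription factor gene, had 109 on the CDR1AS array and 170 on the control array. CEACAM5 was close to the limits (69.4 and 69.9), as was CDH17. Of 12 epithelial markers, 11 had a probe and 10 were above background on each array. Of 5 leukocyte markers with a probe, 4 were above background on each array, but PTPRC, the pan-leukocyte gene, was not. Of 6 fibroblast markers, 3 were, and the collagen genes COL1A1, COL1A2 and COL3A1 were not. Of 5 endothelial markers, 4 were above background on the CDR1AS array and 2 on the control array. Spot intensities over the blanks, summed over each list, were 66997 on the CDR1AS array and 71530 on the control array for epithelium, 419 and 342 for leukocytes, 368 and 379 for fibroblasts, and 116 and 92.8 for endothelium. CD79A was the brightest leukocyte marker, with 418 on the CDR1AS array and 331 on the control array. The part of these marker lists in the ratios below was not tested. In such bulk RNA, fewer cells of a type and less RNA per cell cannot be told apart.

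The pathway's genes did not shift as a block, and a pair of glucose transporters stood at opposite ends of it. Of the 46 measured genes, SLC2A3 was at least 2-fold higher on the CDR1AS array and SLC2A1 at least 2-fold lower. Among all 16685 measured genes, 0.755% were at least 2-fold higher and 0.575% at least 2-fold lower, so a count of 1 each way among 46 is not far from the background. The same 2 genes were the only ones past 1.5-fold, where the background was 2.61% higher and 2.23% lower. They were also the only ones outside the range that held the central 95% of all genes, −0.55 to 0.60 on the log2 scale. The median log2 ratio of the 46 genes was 0.03, against −0.01 over all genes. In all, 26 were above 0 and 20 below, where 47.2% of all genes were above 0 and 52.7% below. Beyond the SD of repeated spots, 12 were higher and 10 lower, against 14.3% and 14.6% of all genes.

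**Figure D1:**
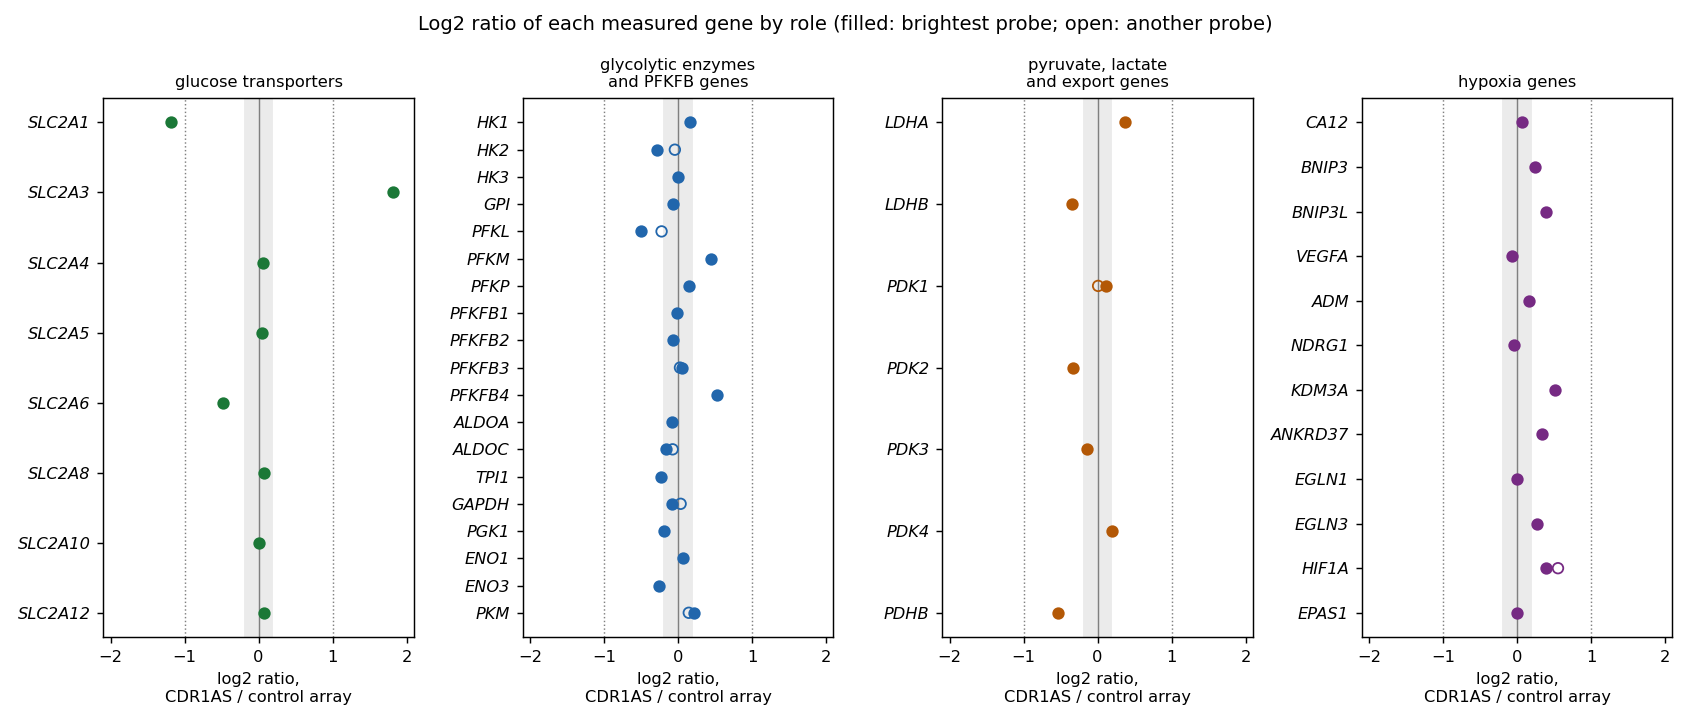
Log2 ratio of spot levels, CDR1AS array over control array, for each of the 46 measured genes in 4 groups by role. Filled points are the brightest probe of a gene, open points another probe, the grey band is the SD of repeated control spots (0.19 either way) and dotted lines mark 2-fold. SLC2A12 and EPAS1 are drawn at their bounds. Only SLC2A3 (1.81) and SLC2A1 (−1.19) lie beyond the dotted lines, and 10 of 12 hypoxia genes lie above 0.

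The glucose transporters carried both large ratios. SLC2A3 (Entrez gene 6515) encodes GLUT3, a high-affinity carrier best known in neurons. Its spot intensity was 1373 on the CDR1AS array, against 374 on the control array. The gene was thus far above background on both arrays and brighter on the CDR1AS array, by 3.52-fold after normalization (log2 ratio 1.81). Of all measured genes, 0.13% had a larger ratio. SLC2A14 encodes GLUT14, a close copy of GLUT3, and lies next to SLC2A3 among the protein-coding genes of its chromosome. It had spot intensities of 771 on the CDR1AS array and 636 on the control array, with a log2 ratio of 0.15, or 2.27 after subtraction of the local background. Whether the probes of this pair bind each other's transcripts was not tested.

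SLC2A1 (Entrez gene 6513) encodes GLUT1, the widespread basal carrier that is abundant in many carcinomas. Its spot intensity was 4358 on the CDR1AS array, against 9193 on the control array. It was among the brighter spots on both arrays and was dimmer on the CDR1AS array, 2.27-fold lower after normalization (log2 ratio −1.19), with 0.36% of all genes lower still. Each of SLC2A1 and SLC2A3 had a single probe. Under the 8 alternative settings the log2 ratio of SLC2A3 lay between 1.35 and 2.02, and that of SLC2A1 between −1.31 and −1.13. Both thus stayed past 2-fold in each setting. The changes of filter and the median of a gene's probes could not alter either value, as both genes were bright with a single probe.

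Of the other transporters, only SLC2A6, which encodes GLUT6, a carrier held largely inside cells, was well above background. Its spot intensity was 182 on the CDR1AS array and 231 on the control array, with a log2 ratio of −0.48. SLC2A8, the gene of the intracellular GLUT8, had 113 on the CDR1AS array and 102 on the control array (0.07). SLC2A4, the insulin-regulated GLUT4 of muscle and fat, had 78.8 and 72.1 (0.06), and SLC2A5, the fructose carrier GLUT5, had 83 and 76.2 (0.05). SLC2A10 had 82.1 and 77.2 (0.01). These 4 genes were close to their background limits, at most at 1.57 times the limit, so their ratios are compressed. SLC2A12 was above background on the CDR1AS array only (76.3, against 69.0 on the control array) and was at least 1.05-fold higher. Over the 8 measured transporters 6 were above 0, beside 47.2% of all genes, and the median was 0.06. It was −0.02 after subtraction of the local background, where the median over all genes was also −0.02. Over the 3 genes at 2 times the background limit on both arrays the median was −0.48.

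**Figure D2:**
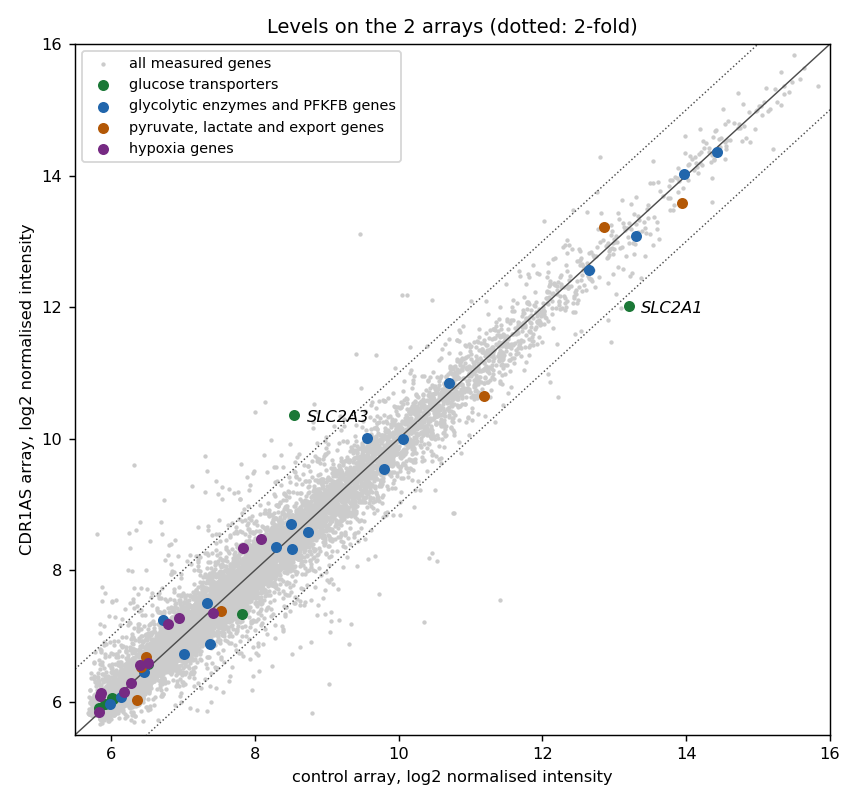
Normalised log2 intensity of each measured gene on the control array (horizontal axis) and on the CDR1AS array (vertical axis). Grey points are all 16685 measured genes, coloured points the 46 genes by role, the solid line marks equal levels and the dotted lines 2-fold. SLC2A3 (10.36 on the CDR1AS array and 8.55 on the control array) lies above the upper dotted line and SLC2A1 (12.01 and 13.20) below the lower dotted line, and the other 44 genes lie between the dotted lines.

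The enzymes of glycolysis itself differed little between the arrays. Isoforms of some steps had different signs, but of these HK1 and ENO1 lay within the spread of repeated spots. Of the 19 measured enzyme and PFKFB genes, 12 were below 0 and 7 above, where 52.7% and 47.2% of all genes were. Ratios of the 19 genes ranged from −0.49 to 0.52. Their median was −0.06, and it was 0.0028 in the authors' deposited table and 0.0002 with scaling to a common median. Over all genes the median was 0.037 in that table and −0.007 with that scaling. None was past 1.5-fold. At the first step, HK1, the widely expressed hexokinase, had spot intensities of 202 on the CDR1AS array and 169 on the control array (log2 ratio 0.16). HK2, the isoform that tumours often induce, had 124 and 139 (−0.29, other probe −0.04). HK3 (−0.0002) and the isomerase gene GPI (−0.06) were at similar levels on the arrays.

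Phosphofructokinase, the main control point of glycolysis, is built from 3 kinds of subunit. PFKM, the muscle subunit, had 1090 on the CDR1AS array and 738 on the control array, a log2 ratio of 0.44. PFKL, the liver subunit, had 136 on the CDR1AS array and 174 on the control array, a log2 ratio of −0.49 (other probe −0.22). The platelet subunit PFKP lay between them, with 1902 and 1636 (0.15). The muscle and liver subunits thus had opposite signs. They kept them in each alternative in which they were measured, PFKM between 0.32 and 0.54 and PFKL between −0.76 and −0.36. PFKL was a dim spot, at 1.89 times the background limit on the CDR1AS array, and was left out at 2 times the limit. The PFKFB enzymes make and remove fructose 2,6-bisphosphate, the strongest activator of phosphofructokinase. PFKFB4 had the highest ratio of the enzymes, with 171 on the CDR1AS array and 116 on the control array (0.52), but −0.40 after subtraction of the local background. PFKFB3, the isoform with the strongest kinase activity, had 355 and 317 (0.06, other probe 0.03), but −1.19 after subtraction of the local background. PFKP turned to −0.34 there as well. PFKFB1 (−0.01) and PFKFB2 (−0.07) were close to background.

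From aldolase to pyruvate kinase the ratios were small, except after subtraction of the local background. GAPDH had 22594 on the CDR1AS array and 20583 on the control array (−0.08, other probe 0.03), and its sign turned with scaling to a common median (0.09), in the authors' deposited table (0.08) and after subtraction of the local background (0.01). ALDOA had 6281 and 6304 (−0.08), and the brain isoform ALDOC had 413 and 426 (−0.16, other probe −0.07). Triose phosphate isomerase, TPI1, had 9067 and 9681 (−0.23), and PGK1, which makes the first ATP of the pathway, had 348 and 365 (−0.19). Most of this stretch of the pathway was thus slightly dimmer on the CDR1AS array after normalization, within or near the spread of repeated spots. The enolase genes had different signs, with ENO1 at 17962 and 15004 (0.06) and the muscle isoform ENO3 at 789 and 867 (−0.26). PKM, the pyruvate kinase of most tumours, had 448 on the CDR1AS array and 362 on the control array (0.21, other probe 0.15). After subtraction of the local background, PKM (−0.68), ALDOC (−0.72), PGK1 (−1.67), ENO3 (−1.42) and ALDOA (−3.28) were past 1.5-fold lower. ENO1 (3.61) was past 2-fold higher there, and the other probe of PKM had the opposite sign (0.75). Among the 8 measured genes from aldolase to pyruvate kinase, 6 were below 0, beside 52.7% of all genes, with a median of −0.12. The 6 include GAPDH, whose sign turned in the settings given above. GAPDH, PGK1, ENO1, LDHA and other genes of this pathway have processed copies in the genome, and which copies a probe binds was not tested.

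At pyruvate, the lactate dehydrogenase subunits were opposite and the measured pyruvate dehydrogenase subunit was lower. LDHA, whose enzyme favours lactate formation, had a spot intensity of 9773 on the CDR1AS array and 7222 on the control array (log2 ratio 0.37). LDHB, whose enzyme favours the return to pyruvate, had 13097 on the CDR1AS array and 14492 on the control array (−0.35). LDHA was brighter and LDHB dimmer on the CDR1AS array, with ratios beyond the spread of repeated spots but within 1.5-fold. PDHB, the beta subunit of the first enzyme of the pyruvate dehydrogenase complex, had 1664 on the CDR1AS array and 2268 on the control array (−0.53). It was the lowest of these genes after SLC2A1, and 2.64% of all genes were lower. For LDHA the local background of the control array (8448) exceeded the spot itself, and after its subtraction the ratios of LDHA (5.83) and LDHB (1.73) were both far above 0.

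The kinases that inhibit pyruvate dehydrogenase showed no common direction. PDK1, the hypoxia-induced kinase, had 109 on the CDR1AS array and 96.2 on the control array (0.11, other probe 0.01). PDK4, which responds to fasting and fatty acids, had 120 and 101 (0.19). PDK2 had 81.9 and 93.6 (−0.33), and PDK3 had 188 and 193 (−0.15). PDK2 was near background on the CDR1AS array, and in the authors' deposited table it was 2.33-fold lower. The 7 measured genes of this group had a median of −0.15, with 3 above 0 and 4 below, beside 47.2% and 52.7% of all genes.

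The hypoxia genes leaned to higher values on the CDR1AS array without any reaching 1.5-fold. Of 12 measured genes, 10 were above 0, EPAS1 by its bound, and the median was 0.20, against −0.01 over all genes, of which 47.2% were above 0. The count was 8 of 12 with scaling to a common median, where EGLN1 (−0.01) and EPAS1 (−0.02) turned, and 8 of 12 after subtraction of the local background, where BNIP3L (−0.07) and CA12 (−0.12) turned. The median was 0.06 after that subtraction and 0.50 in the authors' deposited table, against −0.02 and 0.04 over all genes. The share of all genes above 0 was not counted in these settings. KDM3A, a histone demethylase gene induced by HIF, had 351 on the CDR1AS array and 233 on the control array (log2 ratio 0.51). HIF1A, the oxygen-regulated HIF subunit, had 384 and 273 (0.40), and its other probe had 255 and 166 (0.55). Both probes of HIF1A were brighter on the CDR1AS array, and so was KDM3A in every setting tried (0.35 to 0.70). HIF-1 alpha protein is regulated mainly by its breakdown, and protein was not measured here.

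The mitophagy receptor genes BNIP3L and BNIP3, both HIF targets, were dimmer spots. BNIP3L had 164 on the CDR1AS array and 120 on the control array (0.39), but −0.07 after local background subtraction. BNIP3 had 84.6 on the CDR1AS array and 69.6 on the control array (0.24), where the limit was 69.1. EGLN3, the HIF hydroxylase that HIF itself induces, had 86.6 on the CDR1AS array and 70.0 on the control array (0.27). BNIP3 and EGLN3 were thus barely above background on the control array, and their size is poorly determined. In the authors' deposited table, whose values have no offset, BNIP3 was 3.83-fold and EGLN3 3.9-fold higher, with deposited values of 1.8 and 2.0 on the control array. By those values, 3 of the 46 genes were at least 2-fold higher, SLC2A3, BNIP3 and EGLN3, where 3.35% of all genes were. There 2 were at least 2-fold lower, SLC2A1 and PDK2, where 2.26% of all genes were.

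ANKRD37, a small HIF target, had 175 on the CDR1AS array and 132 on the control array (0.34). ADM, the gene of the vasodilator peptide adrenomedullin, had 112 and 95.3 (0.16). VEGFA, the angiogenic growth factor gene and a classical HIF target, had 183 and 178 (−0.06). NDRG1 (−0.04), the carbonic anhydrase gene CA12 (0.07) and the main HIF hydroxylase gene EGLN1 (0.01) were also at similar levels on the arrays. EPAS1, which encodes HIF-2 alpha, was above background on the CDR1AS array only (73.4, against 68.7 on the control array), with a bound of 0.00 on the log2 scale.

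Restricting the comparison to brighter genes removed most of the hypoxia group. Of the 46 genes, 23 were at least 2 times the background limit on both arrays. Of these, 13 were below 0 and 10 above. Their median was −0.06, against −0.01 over all 7396 such genes, of which 48.5% were above 0. KDM3A (0.51), HIF1A (0.40) and VEGFA (−0.06) were the hypoxia genes left, with a median of 0.40.

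HIF dimers bind promoters at hypoxia response elements, whose core reads ACGTG or GCGTG on either strand. RefSeq promoter windows of GRCh38.p14, from 250 bases before to 50 bases after the start site, matched 46 of the 53 symbols, of which 40 were measured. The windows shown are those of SLC2A1 (chr1:42958819-42959118, minus strand), the only gene past 2-fold with a window, and of the glycolytic and hypoxia genes with the largest ratios whose windows hold a core. These are PFKFB4 (chr3:48556754-48557053, minus strand), KDM3A (chr2:86441121-86441420, plus strand) and PFKL (chr21:44299803-44300102, plus strand). LDHA (chr11:18394313-18394612, plus strand) and PDHB (chr3:58433783-58434082, minus strand) were added after their values were seen, because both hold 6 matches and their ratios are opposite. Each sequence runs from the upstream end to the downstream end of the window on the gene's strand, and capitals mark the matches. Where matches on the opposite strands overlap, as in CACGTG, the letters hold both and count as 2.
SLC2A1: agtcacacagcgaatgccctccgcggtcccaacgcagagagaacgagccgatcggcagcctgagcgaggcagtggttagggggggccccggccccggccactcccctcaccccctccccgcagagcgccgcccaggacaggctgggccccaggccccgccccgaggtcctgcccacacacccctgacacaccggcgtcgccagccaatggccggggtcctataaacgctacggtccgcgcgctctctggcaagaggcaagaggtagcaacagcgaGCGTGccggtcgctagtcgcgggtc
PFKFB4: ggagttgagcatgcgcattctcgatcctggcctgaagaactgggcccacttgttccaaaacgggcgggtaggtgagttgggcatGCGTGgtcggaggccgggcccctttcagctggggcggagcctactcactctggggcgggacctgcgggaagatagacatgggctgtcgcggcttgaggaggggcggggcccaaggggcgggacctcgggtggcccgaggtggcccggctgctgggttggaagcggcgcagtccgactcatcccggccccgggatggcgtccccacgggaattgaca
KDM3A: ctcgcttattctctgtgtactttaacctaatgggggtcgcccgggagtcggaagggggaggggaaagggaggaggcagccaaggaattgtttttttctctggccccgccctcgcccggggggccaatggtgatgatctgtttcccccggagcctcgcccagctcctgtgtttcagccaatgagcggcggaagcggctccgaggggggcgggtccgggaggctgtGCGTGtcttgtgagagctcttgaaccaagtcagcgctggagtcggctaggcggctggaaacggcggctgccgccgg
PFKL: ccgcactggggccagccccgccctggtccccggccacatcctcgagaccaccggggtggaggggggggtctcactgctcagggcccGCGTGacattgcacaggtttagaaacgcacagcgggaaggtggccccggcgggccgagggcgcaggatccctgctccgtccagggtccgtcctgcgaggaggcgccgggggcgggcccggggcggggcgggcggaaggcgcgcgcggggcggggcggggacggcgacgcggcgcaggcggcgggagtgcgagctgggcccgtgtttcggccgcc
LDHA: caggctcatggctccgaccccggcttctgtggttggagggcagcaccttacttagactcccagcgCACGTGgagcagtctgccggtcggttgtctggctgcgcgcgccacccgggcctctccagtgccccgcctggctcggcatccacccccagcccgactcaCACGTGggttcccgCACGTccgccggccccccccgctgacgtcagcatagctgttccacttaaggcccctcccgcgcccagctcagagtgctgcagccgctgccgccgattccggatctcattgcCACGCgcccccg
PDHB: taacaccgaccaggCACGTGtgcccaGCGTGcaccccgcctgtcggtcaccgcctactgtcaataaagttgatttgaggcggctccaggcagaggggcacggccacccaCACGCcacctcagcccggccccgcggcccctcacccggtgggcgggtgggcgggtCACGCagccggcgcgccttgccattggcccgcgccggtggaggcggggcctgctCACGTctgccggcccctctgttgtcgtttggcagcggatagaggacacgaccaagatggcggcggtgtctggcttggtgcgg

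A core was found in 31 of the 46 windows of the group (67.4%), against 48.4% of all 27305 windows in the table and 58.2% of the 13099 windows of measured genes. By role it was found in 9 of 10 hypoxia genes, 13 of 20 enzyme and PFKFB genes, 5 of 9 pyruvate genes and 4 of 7 transporters. Of the hypoxia genes, BNIP3L, VEGFA and NDRG1 were measured but had no window, and CA9 had a window but was not measured. Genes with and without the letters had similar ratios. The 28 measured genes with a core had a median log2 ratio of 0.00, with 15 above 0, and the 12 without a core had 0.09, with 8 above 0. Over all measured genes the medians were −0.01 with a core (7628 genes, 3681 above 0) and −0.01 without (5471 genes, 2525 above 0). SLC2A1, lowest of the group, holds a single match 26 bases after its start site. A match is only a description of these letters, and enhancers outside the windows were not searched.

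**Figure D3:**
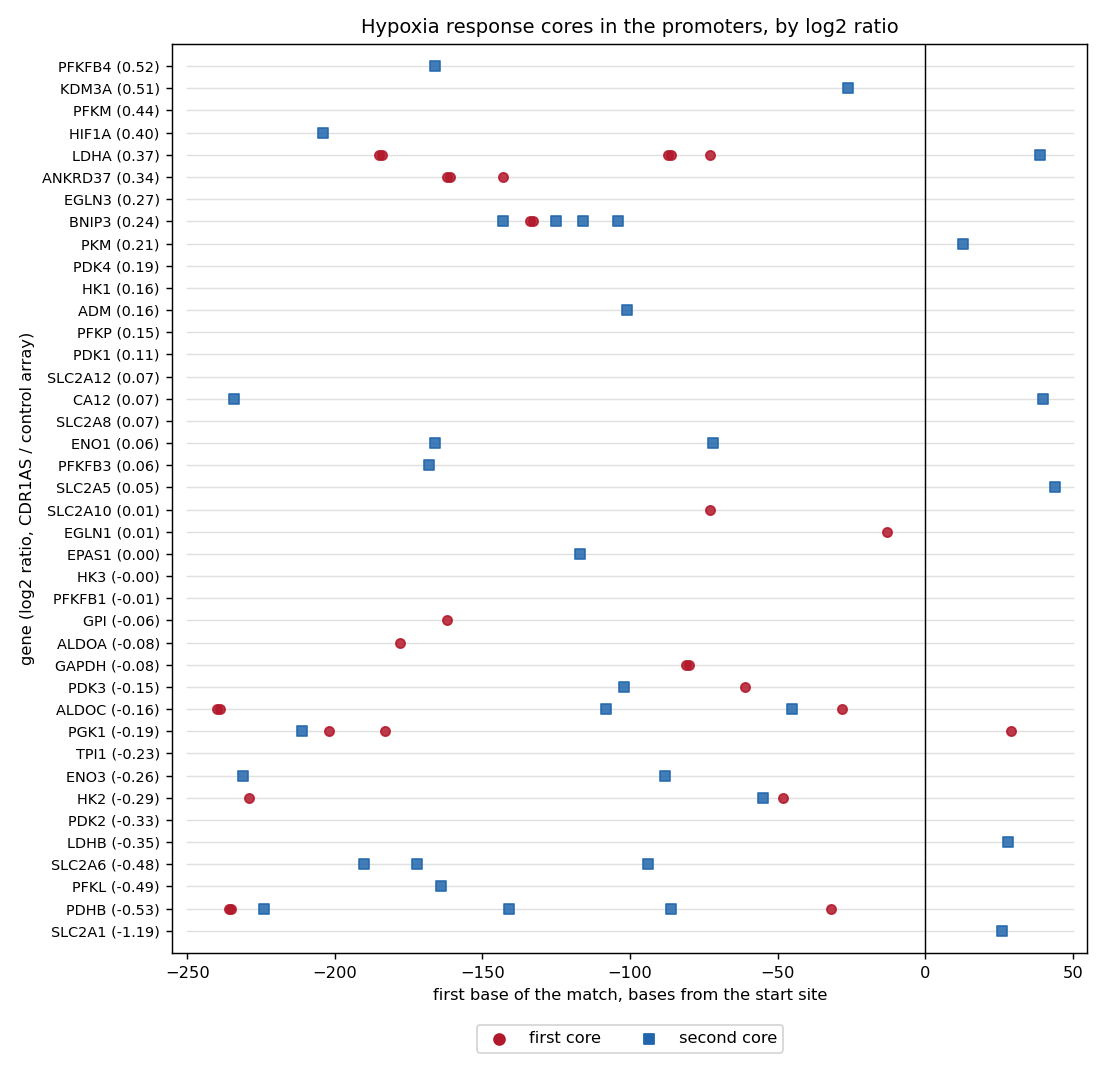
Positions of the ACGTG core (circles, named first core) and the GCGTG core (squares, named second core) in the promoter windows of 40 measured genes, in bases from the start site. Genes run from the highest log2 ratio at the top (PFKFB4, 0.52) to the lowest at the bottom (SLC2A1, −1.19), and matches occur along the whole order, with 6 each in LDHA, BNIP3 and PDHB.

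Other genes of the same pathways, taken from 6 lists, had smaller ratios than SLC2A3 and SLC2A1 with the offset of 50, but not under every setting. Of 103 genes listed, 86 were measured, of which 44 were below 0 and 42 above, beside 52.7% and 47.2% of all genes. The median of the 86 genes was −0.0044, and 0 were past 2-fold. At 1.5-fold, 6 were higher and 0 lower, where 2.61% of all genes were higher and 2.23% lower. In the authors' deposited table, 5 of 85 were at least 2-fold higher (ANGPTL4 3.04, PLOD2 1.51, EMB 1.24, DDIT4 1.16 and RPE 1.03 on the log2 scale) and 2 lower, PPARGC1A (−3.39) and PPP1R3C, where 3.35% and 2.26% of all genes were. After subtraction of the local background, 7 were at least 2-fold higher and 4 lower, where 4.57% and 3.32% of all genes were, and RPE was the only one of the 6 among them. EMB was above background on the CDR1AS array only and PPARGC1A on the control array only, and genes of these alternatives were named after their values were seen. PLOD2, a collagen lysyl hydroxylase and HIF target, had spot intensities of 212 on the CDR1AS array and 114 on the control array (log2 ratio 0.88). RPE, the epimerase of the pentose phosphate pathway, had 739 and 380 (0.86), and DDIT4, an mTOR inhibitor gene induced by hypoxia and other stresses, had 344 and 183 (0.85). These 3 genes were brighter on the CDR1AS array. After subtraction of the local background PLOD2 (0.54) and DDIT4 (0.48) were within 1.5-fold, and RPE had 1.97. ANGPTL4, a lipase inhibitor gene and HIF target, had 123 on the CDR1AS array and 72.2 on the control array (0.81), where it was near the limit. PDP1, the phosphatase that switches pyruvate dehydrogenase on, had 348 and 202 (0.72), and the liver glycogen phosphorylase gene PYGL had 869 and 527 (0.61).

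The further hypoxia-induced genes had a median near 0 and a few high ratios. Of the 22 measured other hypoxia-induced genes, 11 lay on each side of 0 around a median of 0.0008, while 3 (PLOD2, DDIT4 and ANGPTL4) were at least 1.5-fold higher and 0 lower, beside 2.61% and 2.23% of all genes. In the authors' deposited table, of 21 such genes 15 were above 0. Their median there was 0.042, against 0.037 over all genes, and the share of all genes above 0 was not counted there. The 16 genes of the pentose phosphate pathway and of glycogen had a median of 0.01, and the 18 of glycolysis and gluconeogenesis had −0.04. The 7 other hexose transporters had a median of 0.02, the 11 other pyruvate genes 0.05 and the 12 HIF regulators and sugar sensors −0.03. TXNIP, which lowers glucose uptake and responds to glucose, had 6090 on the CDR1AS array and 3812 on the control array (0.56, or −0.18 after subtraction of the local background), and was named after its value was seen.

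Other measured somatic subunits of the pyruvate dehydrogenase complex, also named after their values were seen, had the same sign as PDHB. PDHA1 was not analysed. DLD, the shared dehydrogenase subunit, had 1097 on the CDR1AS array and 1488 on the control array (−0.53). DLAT, the acetyltransferase core, had 309 and 402 (−0.51), and the binding protein gene PDHX had 555 and 595 (−0.23). All 4 measured subunits of somatic cells were therefore below 0, where 52.7% of all genes were. The testis form PDHA2 was near background (0.02). After subtraction of the local background, PDHB (−0.77) and PDHX (−0.60) were below 0, but DLAT (0.09) and DLD (0.58) were above.

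**Figure D4:**
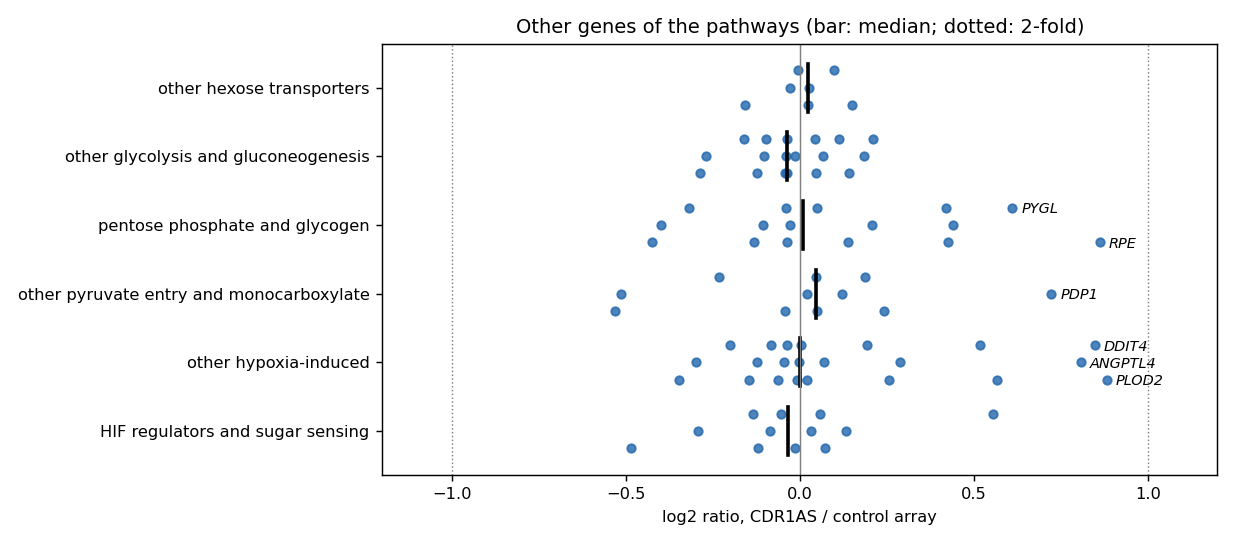
Log2 ratio, CDR1AS array over control array, of 86 measured genes in 6 further lists of the pathways. Each point is a gene, bars are list medians, dotted lines mark 2-fold, genes measured on a single array are drawn at their bound, and the 6 named genes (PLOD2, RPE, DDIT4, ANGPTL4, PDP1 and PYGL) are those past 1.5-fold, all on the higher side.

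**Figure D5:**
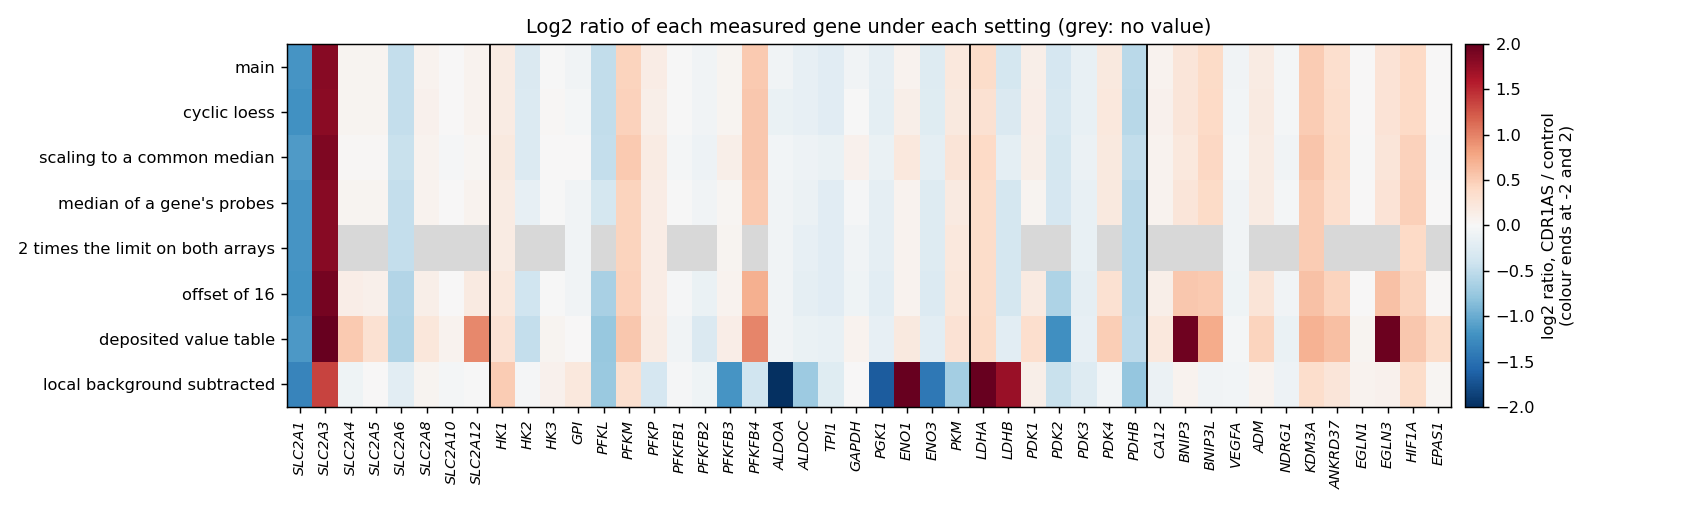
Log2 ratio of each of the 46 measured genes (columns, grouped by role) under the setting used here (top) and 7 alternatives below it, with red for higher and blue for lower on the CDR1AS array and colours ending at 2. SLC2A3 is red and SLC2A1 blue under every setting drawn, while LDHA (5.83) and ENO1 (3.61) turn dark red and ALDOA (−3.28) dark blue after subtraction of the local background. Omitting the filter on dim probes is not drawn.

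Several bright genes had very different ratios after subtraction of the local background. In 6 of the 46 genes (PFKFB3, ALDOA, ALDOC, LDHA, PDK2 and PDHB) the local background was as bright as the spot or brighter on at least 1 array. For ALDOA it was 7112 on the CDR1AS array and 6005 on the control array, against spots of 6281 and 6304. The local background rose with the spot's own brightness across probes (Pearson's r on the log scale 0.942 on the CDR1AS array and 0.977 on the control array, over 24459 probes that are not independent). It was therefore not subtracted in the values given here.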

How the data were processed

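Total RNA of 2 SW620 cultures was amplified, labelled with Cy5 and hybridised to 1-colour arrays, per the labels. Each spot's deposited intensity is a median at 635 nm, scanned at 3 gains per the file headers. How the gains were joined is not stated in the labels or headers. The authors' deposited value table was a straight line of each array's intensity (largest residual 0.0559 on the CDR1AS array and 0.0510 on the control array) with both medians at 25. There 2760 values were empty on the CDR1AS array and 3176 on the control array.

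Of 24460 gene probes, 1 was flagged and left out. Intensities were corrected with limma 3.58.1 in R 4.3.3 (normexp without local background, offset 50), quantile-normalised and taken as log2. Background limits were the mean of 384 blank spots plus 2 SD. A gene was its brightest probe, measured where above its limit on at least 1 array. On an array where it was not, its level was raised to at least the lowest one above background, so that its ratio is a bound. A single symbol was found for 21706 kept probes, several for 0 and none for 2753.

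Each group had 1 array, so no test was made, and ratios past 2-fold or 1.5-fold were counted beside the share of all measured genes. All genes of the group are named. Of the other lists, genes past 1.5-fold are named. The genes and lists were chosen with earlier results of these data known. Alternatives were an offset of 16, the deposited table, local background subtraction, median scaling, cyclic loess, no filter, a stricter filter and the median of a gene's probes. The steps were tested on simulated data. Promoters are from RefSeq (GRCh38.p14). The genome build behind the array is not stated.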

Additional observations from a re-analysis of the deposited data

How the results depend on the processing

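SLC2A3 (1.35 to 2.02) and SLC2A1 (−1.31 to −1.13) kept direction and 2-fold size in all 8 alternatives. No filter, the stricter filter and the median of a gene's probes could not alter these values. Each of these genes had a single probe and passed both filters. Scaling to a common median and cyclic loess kept the counts past 2-fold and 1.5-fold at 1 each way, with medians of the enzymes of 0.0002 and −0.013. With an offset of 16, 3 genes were at least 1.5-fold higher and 3 lower, with medians of 0.11 for transporters and 0.35 for hypoxia genes. The median over all measured genes was −0.007 with that offset. By the deposited values, 3 were at least 2-fold higher and 2 lower, where 3.35% and 2.26% of all genes were. There 8 and 4 were past 1.5-fold. Its medians were 0.15 over all 46 genes, 0.26 for transporters, 0.0028 for enzymes and 0.50 for hypoxia genes. After subtraction of the local background 4 were at least 2-fold higher and 5 lower, where 4.57% and 3.32% of all genes were. There 4 and 9 were past 1.5-fold, and 14 of 46 genes had the other sign. The medians were −0.029 over the 46 genes, −0.018 for transporters, −0.25 for enzymes, −0.047 for pyruvate genes and 0.065 for hypoxia genes. Over all measured genes the median was −0.017. At 2 times the background limit on both arrays, 23 genes were left, with medians of −0.065 over all, −0.48 for transporters, −0.25 for pyruvate genes and 0.40 for hypoxia genes. Fewer genes enter under that filter. For the other changes the cause was not tested. The median of a gene's probes and no filter kept every gene's sign, which was largely fixed in advance. For genes above background on both arrays, no filter cannot alter a ratio. The probe median can alter only the 8 of them with several probes. Of the other pathway genes, with none past 2-fold in the main values, 2 were at least 2-fold higher and 1 lower with an offset of 16 (1 past 1.5-fold lower), 5 and 2 by the deposited values (12 and 3 past 1.5-fold), and 7 and 4 after subtraction of the local background (14 and 8 past 1.5-fold). These counts were added after seeing the data. For the alternatives, the share of all genes was taken only past 2-fold, in the deposited values and after local background subtraction. The other counts of the alternatives have no background beside them and cannot be judged against it. Genes near the background limits, such as BNIP3, EGLN3 and PDK2, have poorly determined ratios. No paired analysis was possible because each group had 1 array, so no replicate could be left out either.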

Other observations

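The genes around the 2 transporters were compared, using the order of protein-coding genes along the chromosome in RefSeq. Of the 10 nearest to SLC2A1 (5 on each side), 8 were measured, with log2 ratios from −0.32 to 0.42 and 0 past 2-fold. SVBP, which encodes a small partner of vasohibins, had the highest, with spot intensities of 599 on the CDR1AS array and 418 on the control array. Of the 10 nearest to SLC2A3, 7 were measured, with ratios from −0.01 to 0.27 and 0 past 2-fold. FOXJ2, a forkhead factor gene on the other side of SLC2A3 from SLC2A14, had the highest, with 159 on the CDR1AS array and 125 on the control array. SLC2A14 itself had 0.15, but 2.27 after subtraction of the local background. Several neighbours were close to background, so their ratios are compressed. Among them were NANOG (78.9 on the CDR1AS array and 73.8 on the control array) and ERMAP (75.5 and 75.8).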
